A study of Mus musculus with 4 samples.

Results

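Genes of glycolysis and of the response to low oxygen were examined in 4 mouse libraries made from cells of B16-F10 tumors. They were 39 genes listed by symbol, with a matching rule that uses no measured value, and all 39 symbols were present among the 55367 gene rows of each count table. They comprised 4 glucose and lactate transporters, 17 glycolytic enzymes, 3 regulators that act on pyruvate or on fructose bisphosphate, 2 subunits of hypoxia-inducible factor (HIF), 2 prolyl hydroxylases that control HIF, and 11 further HIF target genes. The B16-F10 line, derived from a mouse melanoma, grows as a tumor under the skin. Per the labels, tumors were dissociated, cells positive for CD45.2, a surface marker of blood-derived cells, and for CD8, a marker of cytotoxic T cells, were sorted, and polyadenylated RNA was sequenced. The titles gave 2 libraries labeled WT and 2 labeled KO. The series covers WT mice and mice with a floxed Satb1 gene (Satb1 F/F) that carry ThPOK-cre, which acts in the CD4+ T-cell lineage, or E8I-cre, which acts in CD8+ T cells. The labels did not give which Cre stood behind KO, the age or sex of the animals, or whether a library came from 1 animal. The study's methods name C57BL/6 as the WT mice of the tumor model and give young adult animals of mixed sexes for the study in general, with no statement on these libraries. Because nothing states that libraries of a group came from separate animals, p-values measure only the spread between these libraries.

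Satb1, the gene that the knockout targets, went against the labels, with counts of 7 and 5 under the WT label and 131 and 55 under the KO label (log2 fold change 3.36, SE 0.79, edgeR quasi-likelihood test, adjusted p = 0.115). The T cell identity list, 10 genes of T cells, in which Satb1 is also expressed, had a median log2 fold change of 3.68 in the same direction, and its part in the Satb1 counts was not tested. All directions below are therefore those of the libraries as labeled. Counts of Xist, an RNA of the silenced X chromosome in female cells, were 435 and 216 under the WT label and 0 and 3 under the KO label, and those of the Y-linked gene Ddx3y were 0, 0, 188 and 81, so that sex and label cannot be told apart. The libraries held 4017875, 4261025, 4479734 and 5382915 counts on genes in the order WT 1, WT 2, KO 1, KO 2, which is kept throughout. Levels are given in normalized CPM, the counts of a gene relative to all counts on genes, brought to the same total in each library with factors that adjust for RNA composition, and 3 counts corresponded to 0.897, 0.739, 0.568 and 0.521 normalized CPM.

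Glycolysis splits glucose into pyruvate in the cytosol, and lactate dehydrogenase then turns pyruvate into lactate, which leaves the cell through monocarboxylate transporters. HIF is a transcription factor made of an oxygen-labile alpha subunit, such as the products of Hif1a and Epas1, and a stable partner encoded by Arnt. In the presence of oxygen, prolyl hydroxylases of the Egln family mark the alpha subunit for destruction, so that HIF activity is set mostly at the protein level. When oxygen is scarce, HIF binds DNA and raises transcription of most glycolytic genes and of genes for mitophagy, vessel growth and collagen processing. Solid tumors commonly contain poorly oxygenated zones, and macrophages and activated T cells both use glycolysis heavily.

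None of the 38 members that could be tested passed the adjusted threshold of 0.05 between the libraries labeled KO and WT. Epas1, with 1, 7, 15 and 10 counts, was left out by the filter on low counts. Over all genes tested 0.574% of 11837 passed in either direction (0.549% higher and 0.0253% lower in KO), which is the background for this count. At an unadjusted p under 0.05, 4 members were higher in KO, namely the glucose transporter Slc2a3, the lactate transporter Slc16a1, the HIF subunit Hif1a and the collagen prolyl hydroxylase P4ha2, where 9.44% of all genes were higher by the same measure. By that measure no member was lower in KO, against 4.23% of all genes. Fitted fold changes were above 0 for 16 members and below 0 for 22, with a median log2 fold change of -0.08 against 0.05 over all genes tested. The levels of the groups did not overlap for 14 members, 7 higher and 7 lower in KO, whereas they did not overlap for 47.9% of all genes (25.3% higher and 22.6% lower). The 4 largest fold changes were those of Slc2a3, P4ha2, Slc16a1 and Hif1a.

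**Figure D1:**
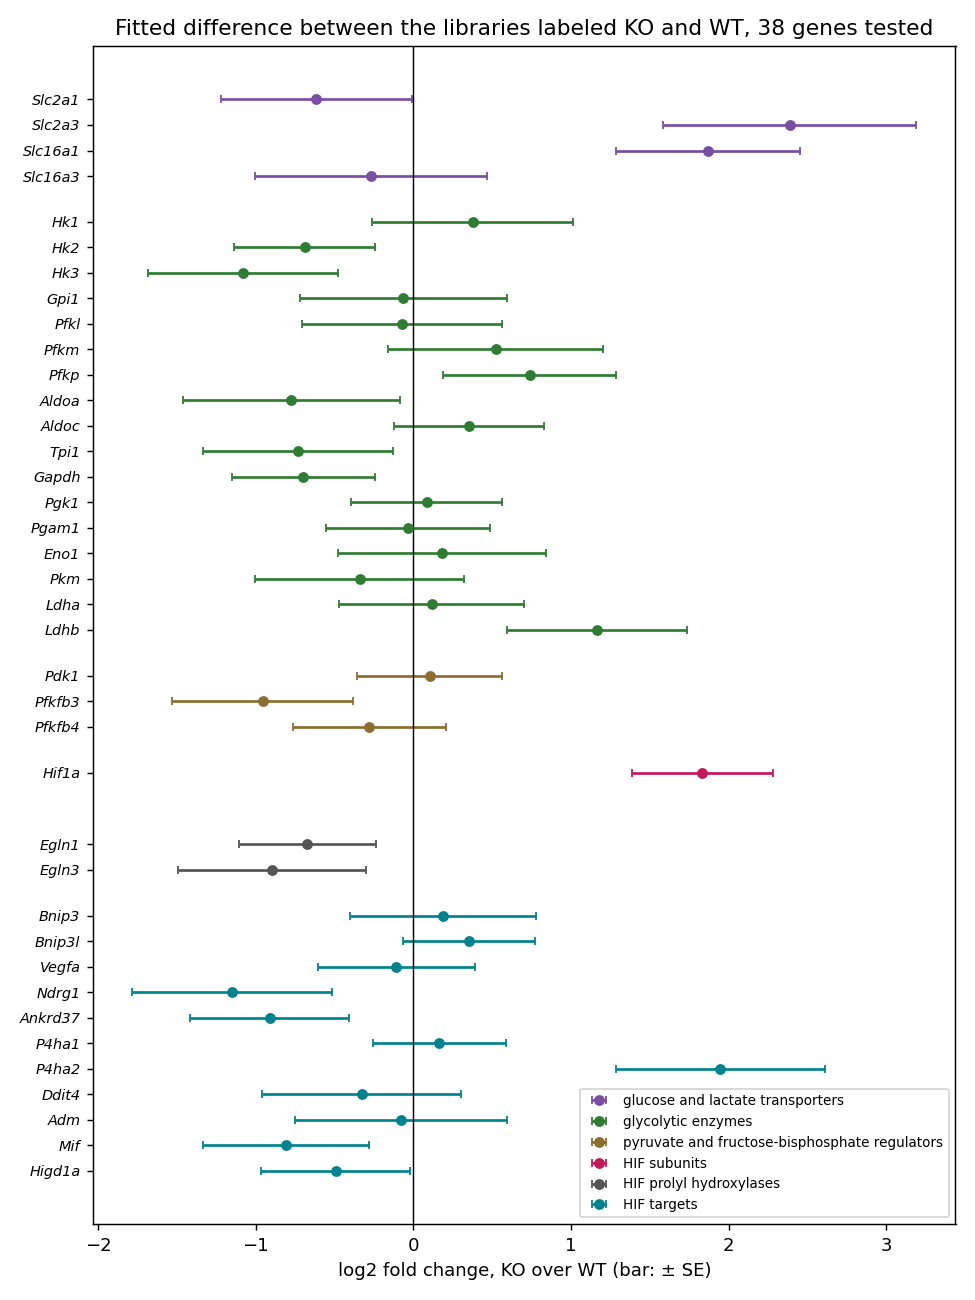
Fitted log2 fold change of KO over WT (horizontal axis) for the 38 tested members, ordered by functional group, with bars of 1 SE. Slc2a3 lies at 2.39 and Ndrg1 at -1.15, the ends of the range, and no member passed the adjusted threshold.

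The spread within groups was wide for the members. KO 2 exceeded KO 1 at 32 of 38 members, against 48.4% of all genes tested. It did so by at least 2-fold at 22 members (57.9%), against 15.5% of all genes. WT 1 exceeded WT 2 at 31 members (81.6%), against 48.8% of all genes. KO 1 held the lowest level of the 4 libraries for 26 members (68.4%), against 31.2% of all genes. KO 2 was at least 2-fold above KO 1 for 53.8% of the 13 macrophage or monocyte markers described below. KO 1 was lowest for 69.2% of these markers. In the T cell identity list the 2 shares were 10% and 0%. The pattern thus varied between lists and was not particular to the members. With library totals as the only scaling, 19 of 38 members (50%) were at least 2-fold higher in KO 2 than in KO 1, against 12.5% of all genes. Members share the same 4 libraries and are not replicates, so these shares describe the libraries and were not tested. Calls depended on which KO library was used. Without KO 2, 7 of 39 members passed the threshold, 2 higher and 5 lower in KO 1, where 5.64% of all genes passed as higher and 4.08% as lower. Without KO 1, 2 members passed, both higher in KO 2, where 0.803% of all genes passed as higher. In these fits the remaining KO library was assumed to vary like the WT libraries.

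**Figure D2:**
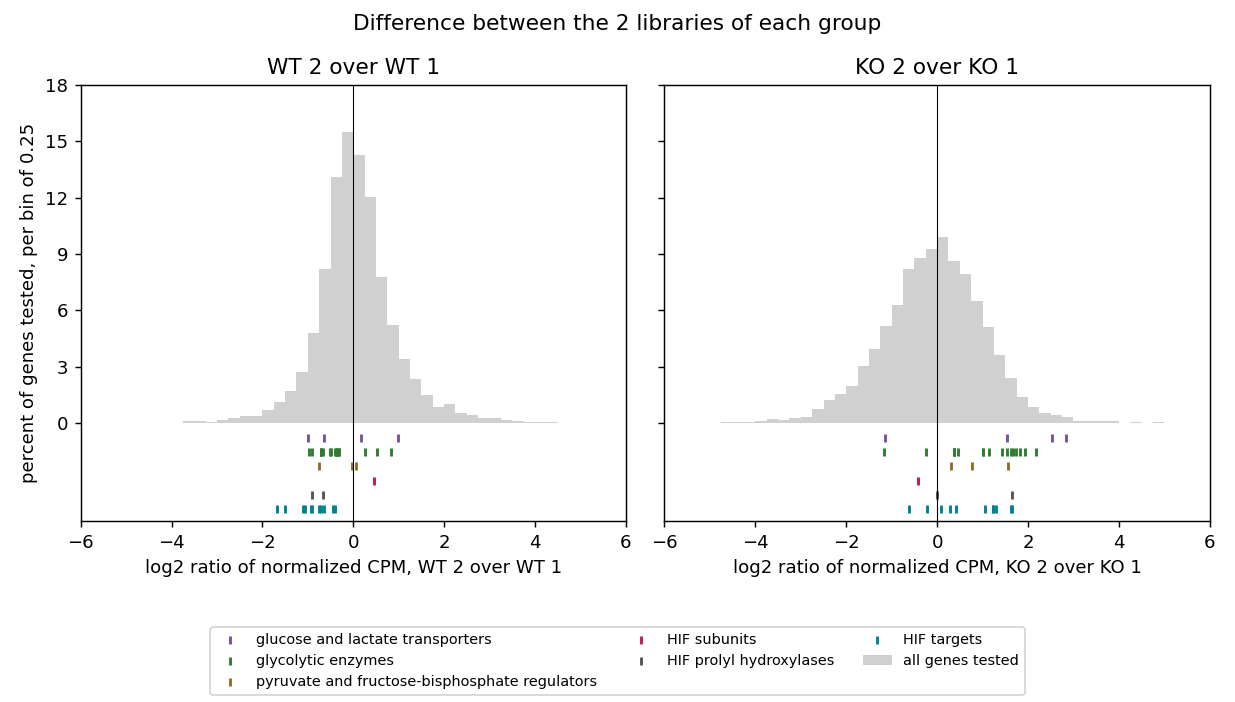
Log2 ratio of normalized CPM between the libraries of a group (horizontal axes) for all genes tested (gray, percent per bin of 0.25) and for each member (colored ticks below 0 on the vertical axis, whose height there only separates the functional groups). Most member ticks lie left of 0 for WT 2 over WT 1 (31 of 38) and right of 0 for KO 2 over KO 1 (32 of 38).

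Markers of cell types moved with the libraries too. The T cell identity list, 10 genes including Cd3e and Cd8a, summed to 80.7 and 112 normalized CPM in WT against 2066 and 1152 in KO, with 9 of 10 genes past the threshold and none at 0. The macrophage or monocyte list, 13 genes including C1qa and Csf1r, summed to 36195 and 42360 in WT and 20204 and 27190 in KO, with none of 13 past the threshold and 8 with non-overlapping lower levels in KO. Lyz2, which overlapped between the groups, made up 8783, 14174, 12835 and 10226 of these sums, and Ccr2 was the 1 gene higher in KO without overlap (91.5, 206, 491 and 211). The list exceeded the T cell identity list in all 4 libraries, although the labels describe a CD8+ sort. The melanoma list of 8 genes summed to 1323, 563, 2215 and 1730, with Tyrp1 past the threshold and 6 of 8 genes higher in KO without overlap. Gpnmb, a gene that macrophages express too, made up 1062, 296, 250 and 558 of these sums and was the only one of the 8 with a fold change below 0. The fibroblast or endothelium list summed to 24.8 and 20.2 in WT and 1149 and 185 in KO, with 3 collagen genes (Col1a1, Col1a2 and Col3a1) past the threshold of 4 tested. The cell cycle list of 15 genes, including Mki67, summed to 355 and 683 in WT and 1439 and 1315 in KO, with none past the threshold and 13 of 15 higher in KO without overlap. The dendritic cell list of 8 genes summed to 8970, 12796, 7464 and 6365, of which H2-Ab1, an MHC class II gene that macrophages express too, made up 8848, 12625, 7246 and 6238, so that the sum does not stand for the list. None of 6 tested passed the threshold, Cd209a and Zbtb46 were higher in KO without overlap (log2 fold changes 2.63 and 3.23), and Batf3 and H2-Ab1 were lower without overlap (-1.48 and -0.67). The neutrophil list summed to 38.3, 11.1, 4.73 and 49.0 and the NK cell list to 0.897, 2.46, 9.47 and 6.77 with Klra8 at 0 throughout. Only Mmp8 of the 6 neutrophil genes (34.1, 8.87, 3.41 and 45.5) and Eomes of the 5 NK cell genes (0.897, 1.48, 8.33 and 6.42), which CD8+ T cells express too, could be tested, and neither passed the threshold. Each made up more than the rest of its list together in all 4 libraries, so that these sums do not stand for the lists. The part of these cell types in the values of the members was not tested, and in bulk RNA a lower share of cells and less RNA per cell cannot be told apart.

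**Figure D3:**
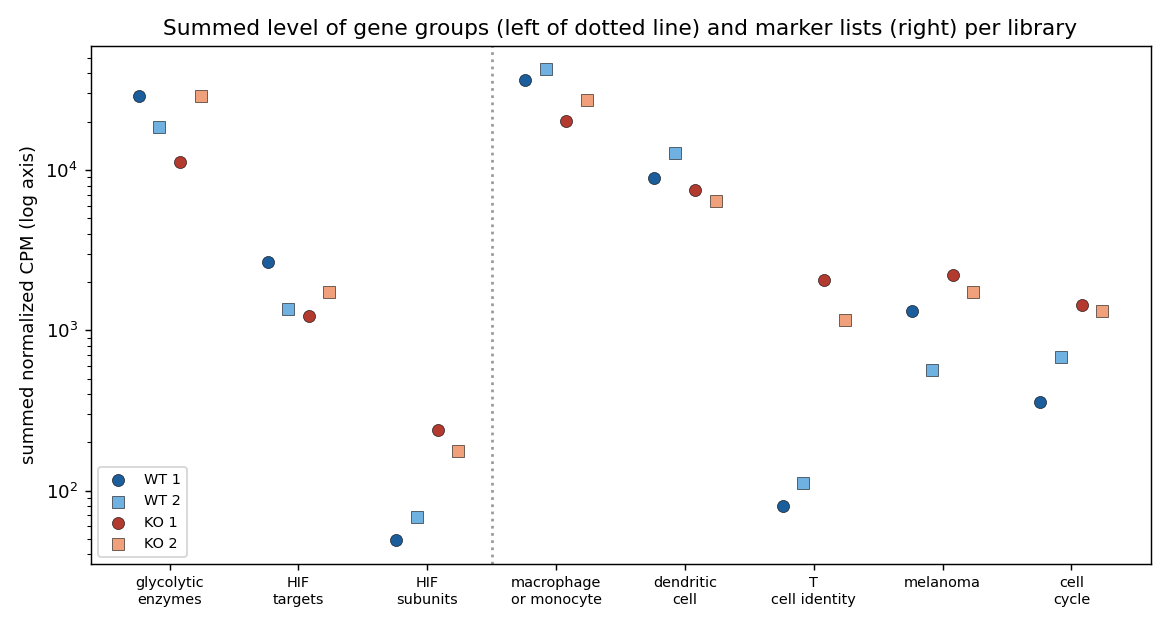
Summed normalized CPM (log axis) per library for 3 groups of members, left of the dotted line, and 5 marker or program lists, right of it. The glycolytic enzymes summed to 29115 in WT 1 and 28926 in KO 2 against 18495 in WT 2 and 11185 in KO 1, whereas the T cell identity list separated the labels.

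The upstream sequences of 5 members are shown because these genes carry the comparisons that follow. Ldha was among the members with the highest levels per kilobase, Bnip3 is a textbook HIF target, Slc16a1 and Slc16a3 are lactate transporters that ranked the KO libraries in opposite order, and Hif1a had the smallest p-value of the members. HIF binds the core ACGTG, so the 250 bases before each RefSeq transcription start were searched for these letters on both strands. Windows were found for 35 of 39 members and 49 starts. Slc2a3, Epas1, Bnip3l and Ndrg1 had no entry. All 49 lay on the strand of a GENCODE transcript of their gene, and 39 had a GENCODE transcript start within 50 bases, including the 5 shown, whereas the start differed by more at 10. ACGTG was present in 24 of 49 member windows (49.0%) and in 16.6% of 32851 windows of all genes. The related core GCGTG was present in 28 of 49 (57.1%) and in 28.2%. The members include genes listed as HIF targets, and the windows of all genes were not matched to theirs for base composition. These shares are therefore a description and were not tested. By gene, ACGTG was found for 3 of 3 transporters, 8 of 17 enzymes, 1 of 3 regulators, the 1 HIF subunit with a window, 2 of 2 prolyl hydroxylases and 6 of 9 HIF targets. Capitals mark ACGTG on either strand and, where a match on each strand overlaps, the palindrome CACGTG, which counts as 2 matches. The sequences read 5′ to 3′ on the strand of the gene, come from RefSeq on GRCm38.p6 and end at the base before the start.
Ldha (chr7:46845554-46845803, plus strand): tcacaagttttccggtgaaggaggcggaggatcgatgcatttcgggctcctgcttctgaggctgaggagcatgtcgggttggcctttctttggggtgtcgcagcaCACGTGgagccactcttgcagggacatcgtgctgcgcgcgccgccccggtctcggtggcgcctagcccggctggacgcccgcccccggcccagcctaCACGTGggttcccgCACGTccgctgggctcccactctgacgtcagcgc
Bnip3 (chr7:138909507-138909756, minus strand): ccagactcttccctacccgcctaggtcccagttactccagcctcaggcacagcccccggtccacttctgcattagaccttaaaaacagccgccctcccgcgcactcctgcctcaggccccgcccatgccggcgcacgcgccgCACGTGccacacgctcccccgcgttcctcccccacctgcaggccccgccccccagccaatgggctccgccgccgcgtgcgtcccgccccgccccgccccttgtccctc
Slc16a1 (chr3:104638414-104638663, plus strand): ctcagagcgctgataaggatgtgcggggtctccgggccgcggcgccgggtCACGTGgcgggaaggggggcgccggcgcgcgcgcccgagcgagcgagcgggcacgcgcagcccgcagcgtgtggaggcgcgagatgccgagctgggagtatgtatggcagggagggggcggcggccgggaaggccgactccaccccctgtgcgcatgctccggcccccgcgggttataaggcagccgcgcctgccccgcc
Slc16a3 (chr11:120948817-120949066, plus strand): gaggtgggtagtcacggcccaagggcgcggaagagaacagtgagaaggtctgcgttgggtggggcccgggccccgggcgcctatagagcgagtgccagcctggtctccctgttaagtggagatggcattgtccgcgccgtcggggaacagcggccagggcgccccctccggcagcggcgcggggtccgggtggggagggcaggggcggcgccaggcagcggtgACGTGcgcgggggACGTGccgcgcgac
Hif1a (chr12:73907617-73907866, plus strand): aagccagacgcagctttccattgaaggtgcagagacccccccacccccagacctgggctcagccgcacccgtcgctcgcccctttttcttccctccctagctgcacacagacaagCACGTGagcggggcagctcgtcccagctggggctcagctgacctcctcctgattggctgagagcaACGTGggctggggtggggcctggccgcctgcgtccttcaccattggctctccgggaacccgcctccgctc
The window shown for Ldha held 5 matches, that of Hif1a 3 and the others 2 each. Ldha has a second window, at the start at base 46847082, which held none and is not shown. A match is a description of letters and shows no binding.

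Glucose enters cells through transporters of the GLUT family. Slc2a1, which encodes GLUT1, had 572 and 289 normalized CPM in WT and 143 and 418 in KO. KO 2 lay between the WT libraries and KO 1 below both. Slc2a3, which encodes the high-affinity transporter GLUT3, lies on chromosome 6 (122727809 to 122801640, minus strand, GRCm38/mm10) and had 9.87 and 11.1 in WT and 13.4 and 96.4 in KO. Its KO libraries were both above WT, but KO 1 by little, and KO 2 was 7.17 times KO 1. The log2 fold change was 2.39 (SE 0.80, edgeR adjusted p = 0.248). Without KO 1 it became 3.19 and passed the threshold (adjusted p = 0.00326), whereas without KO 2 it was 0.32 (adjusted p = 0.770), and over 15 alternatives the adjusted p ranged from 0.00268 to 0.770. Per kilobase, Slc2a3 made up 0.828% and 1.82% of the reads of both transporters in WT and 4.34% and 10.05% in KO, a family chosen after its values were seen. With raw counts the Slc2a3 share was 1.70% and 3.70% in WT and 8.57% and 18.8% in KO. Slc2a1 was the larger transcript in every library with either measure.

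Lactate leaves or enters cells through monocarboxylate transporters. Slc16a1, which encodes MCT1, lies on chromosome 3 (104638668 to 104658462, plus strand) and had 7.78 and 15.3 normalized CPM in WT and 58.5 and 26.2 in KO. Both KO libraries lay above both WT libraries, with KO 1 the highest. The log2 fold change was 1.87 (SE 0.59, edgeR adjusted p = 0.223), and without KO 2 it was 2.29 and passed the threshold (adjusted p = 0.0196), whereas without KO 1 it was 1.17 (adjusted p = 0.329). Slc16a3, which encodes the lactate exporter MCT4, had 833 and 530 in WT and 166 and 966 in KO. KO 2 was the highest library and KO 1 the lowest, 5.80-fold apart, the reverse of their order for Slc16a1. The log2 fold change of Slc16a3 was -0.27 (SE 0.74), and without KO 2 it was -2.07 and passed the threshold (edgeR adjusted p = 0.0161), whereas without KO 1 it was 0.50 (adjusted p = 0.558). Slc16a1 made up 1.11% and 3.35% of the reads per kilobase of this pair in WT and 29.7% and 3.16% in KO, so that KO 1 stood apart from the other 3 libraries, again a pair chosen after its values were seen.

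The glycolytic enzymes together held 2.42% and 1.76% of all gene counts in WT and 1.32% and 3.09% in KO. None of the 17 passed the threshold, 8 had fold changes above 0 and 9 below, and their median log2 fold change was -0.03 against 0.05 over all genes. Without KO 2 this median was -0.92, and without KO 1 it was 0.42. KO 2 was above KO 1 at 15 of 17 enzymes and by at least 2-fold at 11. No difference in the summed level was detected (exact permutation test, two-sided, p = 0.667, n = 2 per group), and 2 libraries against 2 cannot give a p below 0.333. The dissociation stress list, 12 early-response and heat-shock genes, showed 6691, 6636, 5140 and 11574 summed normalized CPM, so that it was also lowest in KO 1 and 2.25 times that level in KO 2, and its part in the enzyme levels was not tested.

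**Figure D4:**
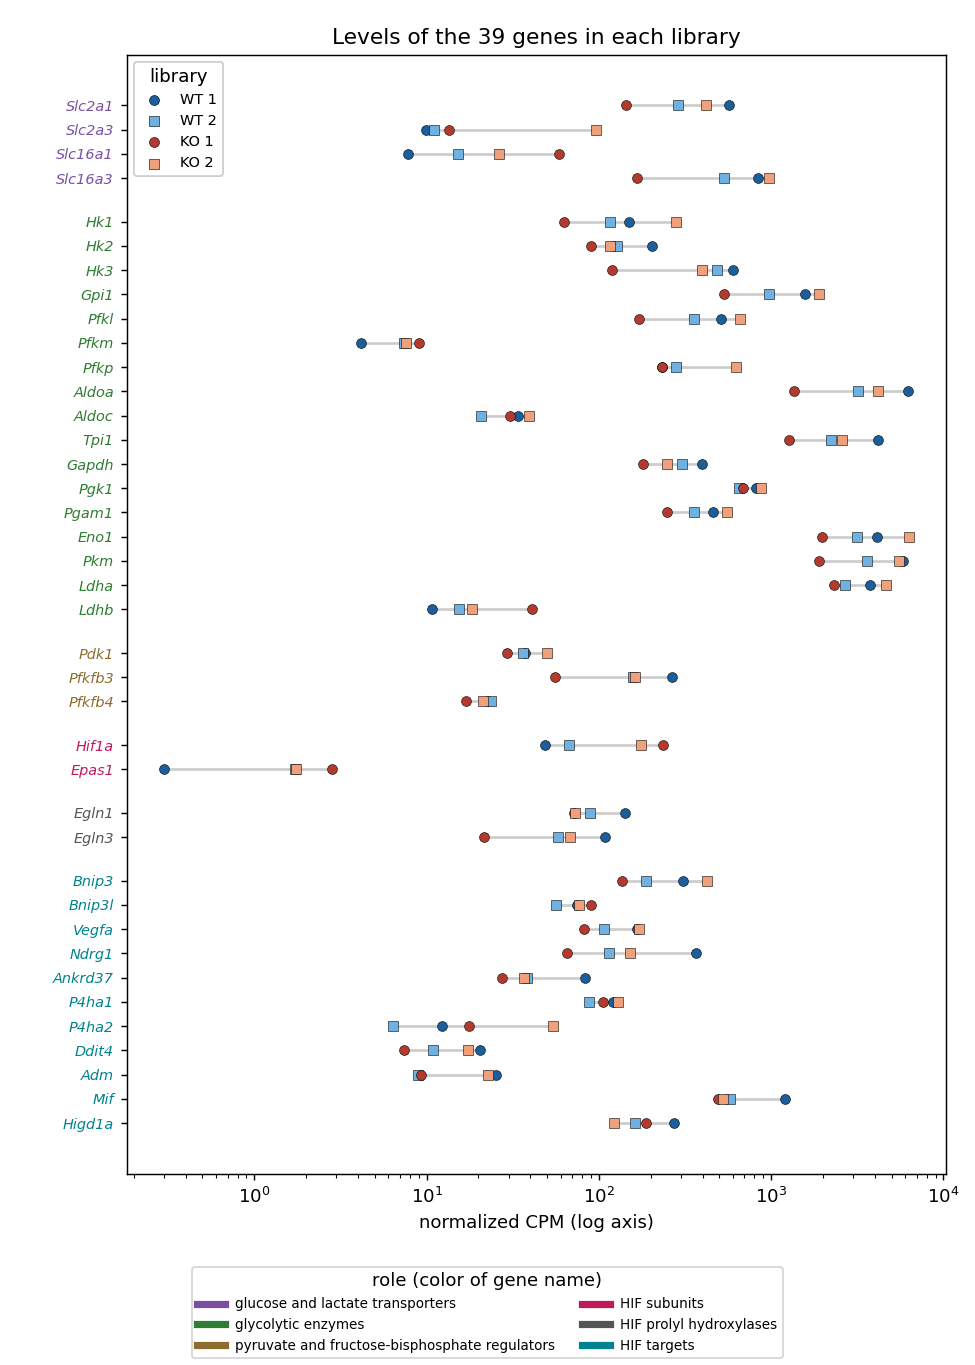
Normalized CPM of the 39 members in each library (log axis), grouped by function. For the abundant enzymes WT 1 and KO 2 tend to lie highest and KO 1 lowest, as for Aldoa (6251, 3198, 1351 and 4174), whereas both KO libraries lie above both WT libraries for Hif1a (48.7, 67.0, 237 and 176).

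Hexokinases trap glucose in the cell by phosphorylation. Hk3, a hexokinase of myeloid cells, lies on chromosome 13 (55005985 to 55021385, minus strand) and had 603 and 484 normalized CPM in WT and 119 and 396 in KO. Both KO libraries lay below both WT libraries, with KO 1 far below the rest. The log2 fold change was -1.08 (SE 0.60, edgeR adjusted p = 0.457), and without KO 2 it was -2.23 and passed the threshold (adjusted p = 0.00906), whereas without KO 1 it was -0.46 (adjusted p = 0.566). Hk1, the broadly expressed form, had 149 and 116 in WT and 62.5 and 281 in KO. Hk2, the form most associated with growing and hypoxic cells, had 203 and 128 in WT and 89.5 and 115 in KO. Per kilobase Hk3 was the main hexokinase transcript in every library, with 76.1% and 79.0% of the family in WT and 59.0% and 67.3% in KO. Hk1 made up 8.10% and 8.15% in WT and 13.4% and 20.6% in KO. For both shares the groups did not overlap (exact permutation test, p = 0.333, the smallest that this design allows). The Hk2 share was 15.8% and 12.9% in WT and 27.5% and 12.1% in KO, with overlap. The Hk3 share was lowest in the library with the lowest macrophage or monocyte sum, KO 1. The part of that list in the share was not tested.

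**Figure D5:**
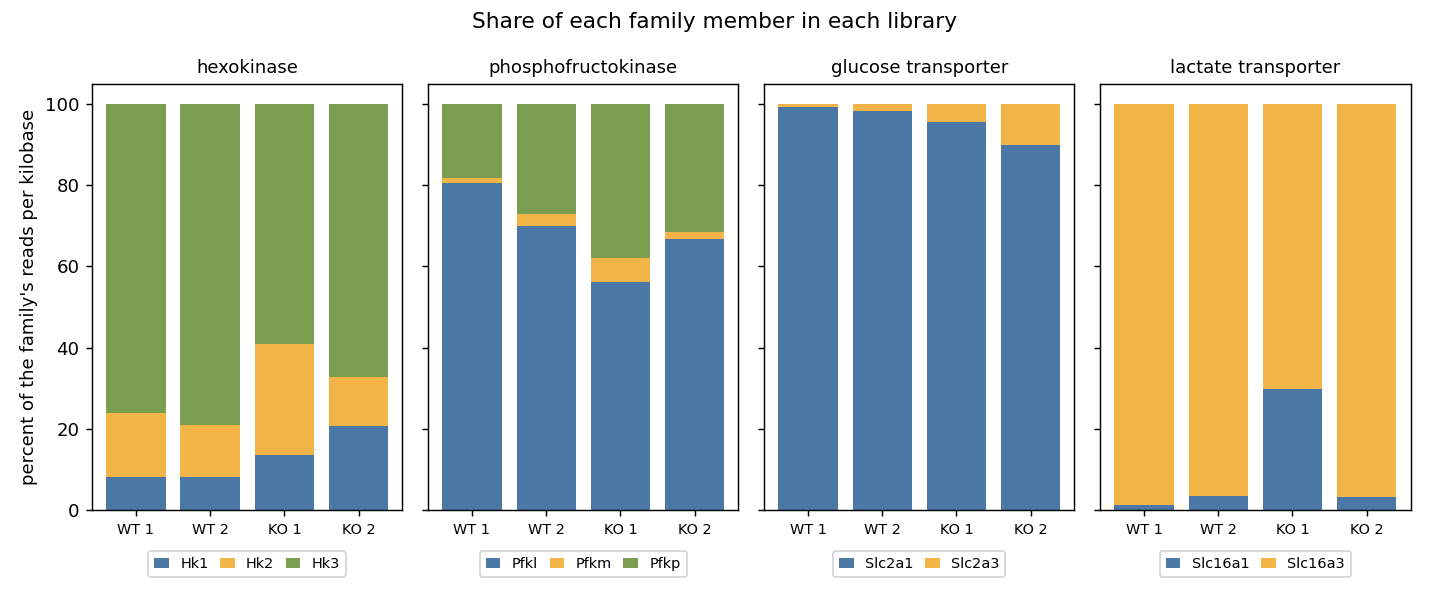
Share of each family member in the reads per kilobase of its family (vertical axis, percent), for 4 families in the 4 libraries. Divided by the union of exons, Hk3 and Pfkl take the largest shares throughout (59.0% to 79.0% and 56.2% to 80.4%), where Pfkp leads in KO 1 with raw counts or transcript length, and Slc16a1 reaches 29.7% in KO 1 only.

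Glucose-6-phosphate isomerase, encoded by Gpi1, and phosphofructokinase carry out the next steps. Gpi1 had 1575 and 966 normalized CPM in WT and 534 and 1898 in KO, with copies that matched 55.3% of its transcript and an antisense gene over 11.5% of its exon bases. Phosphofructokinase commits sugar to glycolysis and is built from products of Pfkl, Pfkm and Pfkp. Pfkl, the liver-type subunit, had 512 and 358 in WT and 171 and 656 in KO. Pfkp, the platelet-type subunit, had 234 and 280 in WT and 232 and 624 in KO, so that only KO 2 stood apart. Pfkm, the muscle-type subunit, stayed between 4.19 and 9.09. Pfkl made up 80.4% and 69.9% of the family per kilobase in WT and 56.2% and 66.8% in KO, and Pfkp made up 18.3% and 27.2% in WT and 37.9% and 31.7% in KO. With raw counts the Pfkp share was 31.2% and 43.4% in WT and 56.2% and 48.5% in KO, and with the length of the longest coding transcript it was 28.9% and 40.7% in WT and 53.3% and 45.8% in KO. Pfkp was thus the larger share in KO 1 by both of these measures, and which subunit leads there depends on the length used. Both shares separated the groups with each of the 3 measures (exact permutation test, p = 0.333, the smallest that this design allows). No share or ratio of this kind could reach 0.05 with these libraries.

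Aldolase splits fructose bisphosphate, and triosephosphate isomerase, encoded by Tpi1, links its products. Aldoa, the main aldolase, lies on chromosome 7 (126795234 to 126800751, minus strand) and had 6251 and 3198 normalized CPM in WT and 1351 and 4174 in KO. WT 1 was 4.63 times KO 1, and KO 2 lay between the WT libraries. The log2 fold change was -0.77 (SE 0.69, edgeR adjusted p = 0.650), and without KO 2 it was -1.84 and passed the threshold (adjusted p = 0.0409), whereas it was -0.18 without KO 1 (adjusted p = 0.878) and -0.25 without WT 1. Aldoc had 20.7 to 39.4, and Aldoa made up 97.5% to 99.4% of the pair per kilobase. Tpi1, on chromosome 6 (124810586 to 124814296, minus strand), had 4147 and 2211 in WT and 1264 and 2565 in KO, with a log2 fold change of -0.73 (SE 0.60, edgeR adjusted p = 0.620). As for Aldoa, KO 2 fell within the range of WT and KO 1 below it.

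The later steps of the pathway yield ATP and pyruvate. Gapdh had 395 and 303 normalized CPM in WT and 181 and 249 in KO, without overlap, and Pgk1 had 815, 655, 682 and 877, the narrowest range of the enzymes (1.34-fold). Gapdh is a gene with many near-identical pseudogenes, and 81 other annotated genes matched 88.0% of its transcript at 95% identity or more. Those of the 81 with gene rows held 4187, 2092, 2138 and 2236 counts together, against 1321, 1229, 956 and 1434 on Gapdh. Its reads may thus have been lost in counting, and its level and the gap between the groups are uncertain. Pgam1 had 461, 359, 248 and 552, with 43.1% of its transcript matched by copies. Eno1, which makes phosphoenolpyruvate, had 4126 and 3135 in WT and 1963 and 6271 in KO, with KO 2 the highest and KO 1 the lowest. Pkm, which encodes pyruvate kinase, lies on chromosome 9 (59656368 to 59679375, plus strand) and had 5838 and 3589 in WT and 1903 and 5539 in KO. Its log2 fold change was -0.34 (SE 0.66, edgeR adjusted p = 0.851), and the WT 1 and KO 2 levels were close to each other. Copies matched 85.6% of the Eno1 transcript, 68.8% of Pgk1 and 65.5% of Pkm, so that these levels are uncertain too.

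Lactate dehydrogenase is a tetramer of A and B subunits, of which the A form favors lactate production. Ldha, on chromosome 7 (46841475 to 46855627, plus strand), had 3758 and 2670 normalized CPM in WT and 2305 and 4664 in KO. The WT values lay inside the range of the KO values, and the log2 fold change was 0.12 (SE 0.59, edgeR adjusted p = 0.952). Ldhb, on chromosome 6 (142490249 to 142507957, minus strand), had 10.8 and 15.5 in WT and 40.9 and 18.2 in KO, without overlap. Its log2 fold change was 1.16 (SE 0.57, edgeR adjusted p = 0.406). Ldha made up 96.4% to 99.4% of the pair per kilobase, with the lowest share in KO 1. Copies matched 76.8% of the Ldhb transcript and 55.0% of the Ldha transcript.

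Compared per kilobase of exon, the members formed steep steps. Ldha led with a mean of 1012 normalized CPM per kilobase over the 4 libraries, followed by Aldoa with 1009, Mif with 939.5, Tpi1 with 925, Pkm with 843 and Eno1 with 720. The library values of Ldha spanned 696 to 1409 and those of Aldoa 364 to 1685, so that these neighbors did not differ beyond their spread. Their order rests on the length, because the 3710 exon bases used for Aldoa were merged over 2 gene identifiers of that symbol, and with the 2911 bases of the main one Aldoa would lead. Pgk1 followed at 337, Pgam1 at 204, Gpi1 at 193 and Slc16a3 at 117. At the other end lay P4ha2 at 3.62, Pfkm at 2.12 and Epas1 at 0.295.

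The 3 regulators act beside the main path. Pfkfb3 makes fructose 2,6-bisphosphate, the activator of phosphofructokinase, and had 266 and 157 normalized CPM in WT and 55.3 and 163 in KO. KO 1 lay far below the other libraries, the log2 fold change was -0.96 (SE 0.57, edgeR adjusted p = 0.488), and without KO 2 it was -1.97 and passed the threshold (adjusted p = 0.0208), whereas without KO 1 it was -0.38 (adjusted p = 0.673). Pfkfb4, of the same enzyme family, had 22.7, 23.7, 17.0 and 21.2. Pdk1, which encodes a kinase that restrains pyruvate dehydrogenase, had 37.1, 36.5, 29.2 and 49.8. The levels of Pfkfb4 and Pdk1 differed by 1.39-fold and 1.71-fold at most, so that KO 1 was lowest here as well but by less.

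Hif1a, which encodes the main oxygen-labile HIF subunit, lies on chromosome 12 (73901375 to 73947530, plus strand). It had 48.7 and 67.0 normalized CPM in WT and 237 and 176 in KO. Both KO libraries lay above both WT libraries, and the KO libraries were closer to each other than for most members. The log2 fold change was 1.83 (SE 0.45, edgeR adjusted p = 0.129). Over 15 alternatives 5 passed the threshold, among them edgeR without a filter on low counts (adjusted p = 0.0308) and DESeq2 (adjusted p = 0.00833). Another was a crossed replicate block, which grouped WT 1 with KO 2 and was added after seeing the data. Without KO 2 the log2 fold change was 1.99, and no fit without KO 1, WT 1 or WT 2 passed. The fold change stayed above 0 in all 15. Hif1a ordered the libraries with WT 1 lowest and KO 1 highest, as did Slc16a1, Ldhb, Pfkm and Epas1 among the members and the sums of the T cell identity and cell cycle lists, and the part of those lists in its level was not tested. Exons of the antisense gene Gm15283 overlap 5.60% of its exon bases, and the strand setting of the counting was not given in the sources used here. Epas1, which encodes the alternative alpha subunit HIF-2 alpha, had 0.299 and 1.72 normalized CPM in WT and 2.84 and 1.74 in KO, close to the level of 3 counts in WT, and no fold change is given.

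The prolyl hydroxylases are themselves HIF targets as well as brakes on HIF. Egln1, the main oxygen sensor, had 141 and 89.0 normalized CPM in WT and 72.1 and 72.2 in KO. The KO libraries were nearly equal and both below WT, with a log2 fold change of -0.67 (SE 0.43, edgeR adjusted p = 0.518). Egln3, the more inducible form, had 109 and 57.7 in WT and 21.6 and 67.5 in KO. Its groups overlapped, with a log2 fold change of -0.90 (SE 0.59, edgeR adjusted p = 0.530), and without KO 2 it was -1.98 and passed the threshold (adjusted p = 0.0326), whereas without KO 1 it was -0.30 (adjusted p = 0.768). Thus the subunit transcript and the transcripts of its hydroxylases had fold changes of opposite sign, none of them past the threshold.

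The 11 further HIF targets summed to 2654 and 1356 normalized CPM in WT and 1222 and 1730 in KO (exact permutation test, two-sided, p = 0.667, n = 2 per group). None passed the threshold, 4 had fold changes above 0 and 7 below, and the median log2 fold change was -0.11, or -0.89 without KO 2 and 0.23 without KO 1. All 11 were higher in WT 1 than in WT 2, and 9 were higher in KO 2 than in KO 1. Mif, a secreted cytokine and tautomerase, took 30.2% to 45.5% of the sum. It lies on chromosome 10 (75859353 to 75860240, minus strand) and had 1207 and 575 in WT and 494 and 523 in KO. Both KO libraries lay below both WT libraries, yet the spread within WT was larger than the gap, and the log2 fold change was -0.81 (SE 0.53, edgeR adjusted p = 0.522). Copies matched 93.4% of the Mif transcript.

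Among the targets that act in mitochondria, Bnip3 and Bnip3l encode receptors for mitophagy and Higd1a a small protein of the inner membrane. Bnip3 had 306 and 188 normalized CPM in WT and 137 and 425 in KO, so that KO 1 and KO 2 were the extremes. Bnip3l had 74.2 and 56.4 in WT and 90.1 and 76.7 in KO, without overlap but within 1.6-fold. Higd1a had 273 and 162 in WT and 187 and 122 in KO, and it was the only member with its lowest level in KO 2. Copies matched 94.2% of the Bnip3 transcript, 43.5% of Higd1a and 34.7% of Bnip3l, and antisense genes shared 22.3% of the exon bases of Bnip3 and 22.5% of those of Higd1a.

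Other targets encode secreted factors and stress proteins. Vegfa, the main growth factor for blood vessels, had 166 and 106 normalized CPM in WT and 82.2 and 171 in KO. Adm, which encodes the vasodilating peptide adrenomedullin, had 25.1, 8.87, 9.28 and 22.7. In both, WT 1 and KO 2 were close to each other and above the other libraries. Ndrg1, a stress-response gene, had 367 and 115 in WT and 65.1 and 152 in KO, and its log2 fold change of -1.15 was the lowest of the members (SE 0.63, edgeR adjusted p = 0.456). Ddit4, an inhibitor of mTORC1 signaling, had 20.3, 10.8, 7.38 and 17.4. Ankrd37 had 82.5 and 38.2 in WT and 27.4 and 36.6 in KO, without overlap, and WT 2 and KO 2 were nearly equal. Exons of Lrp2bp on the other strand overlap 26.4% of the exon bases of Ankrd37.

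Collagen prolyl hydroxylases modify collagen and also respond to HIF. P4ha1 stayed between 88.2 and 128 normalized CPM. P4ha2, on chromosome 11 (54100095 to 54131665, plus strand), had 12.3 and 6.41 in WT and 17.6 and 54.2 in KO. Both KO libraries lay above both WT libraries, KO 2 was 3.08 times KO 1, and the log2 fold change was 1.95 (SE 0.66, edgeR adjusted p = 0.25). Over 15 alternatives 3 passed the threshold. They were the fits without a filter on low counts (edgeR adjusted p = 0.0434), without KO 1 and with the crossed replicate block (0.0312). That block was added after seeing the data. The log2 fold change was 2.54 without KO 1 and 0.89 without KO 2. The collagen genes Col1a1, Col1a2 and Col3a1 were also higher in KO, with 179, 230 and 726 in KO 1 and 48.4, 35.8 and 79.3 in KO 2, so that they ranked the KO libraries in the opposite order to P4ha2.

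The glycolytic enzymes were then set against the HIF targets within each library. The ratio of their summed normalized CPM was 11 and 13.6 in WT and 9.15 and 16.7 in KO, so that the KO libraries enclosed the WT libraries (exact permutation test, two-sided, p = 1, n = 2 per group). Without Mif the ratio was 20.1 and 23.7 in WT and 15.4 and 24 in KO (p = 1, exact permutation test). With genes weighted equally, the mean log2 CPM of the enzymes minus that of the HIF targets was 2.06 and 2.62 in WT and 2.15 and 2.44 in KO, where the WT libraries enclosed the KO libraries instead (p = 1, exact permutation test). Within the enzyme sum, Aldoa took 21.5% and 17.3% in WT and 12.1% and 14.4% in KO, and Ldha took 12.9% and 14.4% in WT and 20.6% and 16.1% in KO. Pgk1 took 6.10% in KO 1 and 2.80% to 3.54% elsewhere. Eno1 took 21.7% in KO 2 and 14.2% to 17.6% elsewhere, and Tpi1 took 8.87% in KO 2 and 11.3% to 14.2% elsewhere. The composition of the enzyme sum thus varied between libraries as well as its size. KO 1 and KO 2 each stood apart for some enzymes, which has no replicate.

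Genes that adjoin these pathways gave no call either. Of the other glycolysis genes 11 of 22 were tested and none passed the threshold. The largest value with adequate counts was that of Eno3, the muscle enolase, with 16.7 and 16.0 normalized CPM in WT and 71.6 and 83.5 in KO (log2 fold change 2.24, SE 0.45, edgeR adjusted p = 0.0624). Bpgm, which makes 2,3-bisphosphoglycerate, had 5.38 and 5.17 in WT and 11.7 and 5.04 in KO, with overlap (log2 fold change 0.66, SE 0.72, edgeR adjusted p = 0.722). Of 12 pyruvate entry genes 11 were tested, with a median log2 fold change of 0.49. Dld, a subunit of pyruvate dehydrogenase, had 16.1 and 25.6 in WT and 70.6 and 43.1 in KO, the same order of libraries as Hif1a (log2 fold change 1.44, SE 0.49, edgeR adjusted p = 0.252), and Pdk3, a kinase of the same complex, had a log2 fold change of 1.02. The 7 pentose phosphate genes had a median of -0.48, with 6 of 7 below 0. Pgls had -0.85 and Rpe 1.17. Of 14 gluconeogenesis and glycogen genes 11 were tested, with a median of 0.13, and Pcx and Ugp2 had log2 fold changes of 2.30 and 1.26. Fbp1, Fbp2 and Pck1 were at 0 counts in all libraries.

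Of 10 other genes of the HIF machinery 8 were tested, none passed, and the median log2 fold change was 0.00. Egln2, the third prolyl hydroxylase, had 73.9 and 73.2 normalized CPM in WT and 35.4 and 51.0 in KO (log2 fold change -0.77, SE 0.43, edgeR adjusted p = 0.462), and Vhl, which targets hydroxylated HIF for degradation, had a log2 fold change of -0.46. Fold changes of Egln1, Egln2 and Egln3 were thus all below 0. Of 34 other HIF targets 29 were tested, none passed, and the median was 0.11. Their summed level was 10711, 4714, 3358 and 9423, the same order of libraries as for the enzymes. Tfrc, the transferrin receptor, had 12.0 and 16.8 in WT and 123 and 50.4 in KO (log2 fold change 2.59, SE 0.56, edgeR adjusted p = 0.0847). Plod2, a collagen lysyl hydroxylase, had 1.20 and 0.246 in WT and 28.2 and 10.9 in KO (log2 fold change 4.77, SE 0.93, edgeR adjusted p = 0.0600). Its WT counts were 4 and 1, near the level of 3 counts, so that the size of this fold change is uncertain.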

How the data were processed

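The authors deposited 1 table of whole-number read counts per gene for each of 4 libraries, without normalization. Per the study's methods and the submitters' processing notes, reads were aligned to mm10 with HISAT2 2.1.0 and counted with HTSeq 0.11.0. The annotation and strand setting were not given in the sources used here. Summary lines that name no gene (unaligned, ambiguous, outside features, low quality or with several alignments) held 71.2% to 79.5% of each table and did not enter library sizes or tests.

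Counts were analyzed with edgeR 4.0.16 in R 4.3.3 (filterByExpr with at least 10 counts, and 15 in total, TMM factors of 0.832 to 1.18, quasi-likelihood F test with group as the only term, two-sided, Benjamini-Hochberg adjustment over 11837 genes, threshold 0.05). Fold changes used a prior count of 0.125, and the SE is the size of the log2 fold change divided by the square root of F. Levels per kilobase used the union of exons in GENCODE M21 (GRCm38/mm10), which matched 96.3% of gene rows and all 39 members. Near-identical copies were sought among its transcripts with BLAST+ 2.17.0 (at least 95% identity over 100 bases or more). The level of 3 counts per library covers counting error only.

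The members, gene lists and tests were chosen with earlier results of these data known. Some marker lists are not reported here. A member was described in full if it passed the threshold, if its groups did not overlap and its log2 fold change was at least 1 in size, if it was among the 5 highest per kilobase, or if it was a HIF subunit or hydroxylase. From each pathway list the genes past the threshold, or else the 2 with the largest fold changes and a mean of at least 20 counts, were named. Alternatives were other scaling factors and filters, DESeq2 1.42.0, the likelihood ratio test, a replicate block, a prior count of 2, removal of gene classes, other lengths, and each library left out. A crossed replicate block was added after seeing the data. The test was checked on simulated counts for this comparison with 200 changed genes, raised and lowered in equal number. It gave 5 false calls among 11862 genes at a log2 fold change of 4 and 0 among 11952 at 2.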

Additional observations from a re-analysis of the deposited data

How the results depend on the processing

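No member passed the threshold with either of the other scaling factors, with library totals only, with the stricter filter, with the replicate block, with a prior count of 2 or without mitochondrial, ribosomal protein and antigen receptor genes. Members past the threshold and higher in KO numbered 3 of 39 without a filter (Hif1a, P4ha2 and Slc2a3), where 2.38% of all genes passed as higher. Hif1a was the 1 such member with DESeq2, against 2.34% of all genes, and with the likelihood ratio test, against 4.02%. Members lower in KO numbered 0 to 5 with 1 library left out, the 5 being Aldoa, Egln3, Hk3, Pfkfb3 and Slc16a3 without KO 2, when Hif1a and Slc16a1 were the 2 higher ones. Over all genes, 65 higher and 3 lower calls became 133 and 3 with library totals only, 505 and 78 without a filter, 114 and 3 with the stricter filter, 314 and 63 with DESeq2, 476 and 80 with the likelihood ratio test, and 99 to 725 and 7 to 524 with 1 library left out, most of them without KO 2. The cause was not tested.

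The replicate block gave 201 and 14 calls over all genes and turned the log2 fold change of Eno1 to -0.035, and it changed no call of a member. Libraries with the same number did not deviate together (correlation of deviations -0.18 over 11837 genes), so the numbers were not read as pairs. The crossed replicate block, added after seeing the data, gave 535 and 112 calls over all genes (4.52% and 0.946%) and 3 and 0 among 38 members.

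With library totals only, the median log2 fold change of all genes was 0.38 in place of 0.05, a shift of 0.33, and 8 members turned above 0, namely Slc16a3 (0.037), Gpi1 (0.25), Pfkl (0.24), Pgam1 (0.28), Pfkfb4 (0.045), Vegfa (0.22), Ddit4 (0.0057) and Adm (0.27). Relative to that shift they did not rise. With the stricter filter Pgam1 was at 0.0025. With 1 library left out, the median of the glycolytic enzymes ranged from -0.92 to 0.42 and that of the HIF targets from -0.89 to 0.23, and log2 fold changes that turned sign ranged, from lowest to highest, from -2.07 to 0.50 for Slc16a3, -1.12 to 1.08 for Hk1, -1.29 to 0.57 for Gpi1, -1.38 to 0.59 for Pfkl, -0.19 to 1.28 for Pfkp, -0.0081 to 0.70 for Aldoc, -0.14 to 0.25 for Pgk1, -0.76 to 0.42 for Pgam1, -0.92 to 0.78 for Eno1, -1.34 to 0.23 for Pkm, -0.52 to 0.53 for Ldha, -0.37 to 0.43 for Pdk1, -0.89 to 0.78 for Bnip3, -0.77 to 0.32 for Vegfa, -0.088 to 0.35 for P4ha1, -1.11 to 0.16 for Ddit4 and -0.90 to 0.81 for Adm. The difference in the Hk1 share, 8.89 percentage points between KO and WT per kilobase, was 13.5 with raw counts and, added after seeing the data, 13 with the longest coding transcript as the length.

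With 2 libraries per group, simulated log2 fold changes of 4 were recovered at 93% of changed genes and those of 2 at 10%. The largest fitted change among the members was 2.39. The simulation gave all genes the same dispersion, whereas the members spread more between the KO libraries than most genes. These rates may therefore not hold for the members.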
